A study of Mus musculus with 6 samples.

Results

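The platelet-derived growth factor (PDGF) genes described here are 4 ligand genes, Pdgfa, Pdgfb, Pdgfc and Pdgfd, and 2 receptor genes, Pdgfra and Pdgfrb. They were taken by gene name from a table of 12969 genes, which held all 6. RNA was sequenced from infarcted heart tissue of male mice about 12 weeks old, 4 days after the left anterior descending coronary artery had been permanently tied off. One group, Irf3KO, was 3 samples from mice with the genotype IRF3-/-. These mice lack the transcription factor that nucleic acid sensors use to start interferon and antiviral gene expression. The other group, WT, was 3 samples from wild-type C57BL/6 mice. The sources used here do not give the strain of the Irf3KO mice or say whether they were littermates of the WT. Values are RPKM, reads per kb of gene length, scaled to library depth, so levels can be set side by side between genes.

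PDGF ligands are secreted dimers that cross the space between cells and bind receptor tyrosine kinases on mesenchymal cells. PDGF-A and PDGF-B are released ready to bind, whereas PDGF-C and PDGF-D carry an extra CUB domain that proteases must remove first. The alpha receptor, the product of Pdgfra, is best known in the heart as a receptor of fibroblasts, and the beta receptor, the product of Pdgfrb, as the receptor of pericytes and smooth muscle cells, which endothelial PDGF-B recruits to vessels. In an infarct the tissue holds all of these cells beside macrophages, which are a further source of ligands, and the growth of fibroblasts and the coating of new vessels are processes in which the pathway is known to act.

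None of the 6 genes passed the test of Irf3KO against WT (limma on log2(RPKM + 1), Benjamini-Hochberg adjusted p under 0.05 over 12913 genes), a test that called 0.503% of all genes tested. None had an unadjusted p under 0.05 either, against 8.40% of all genes. The log2 fold changes, Irf3KO minus WT, ran from -0.82 for Pdgfra to 0.34 for Pdgfb. Their median was -0.18, beside -0.09 over all genes tested, of which 59.3% had values below 0. Without Irf3KO replicate 2, a library that stands apart from the rest, the medians were -0.08 for the 6 genes and 0.01 over all genes tested. For 2 of the 6 genes the libraries of the groups did not overlap, Pdgfb with all Irf3KO libraries above all WT libraries and Pdgfc with all below. Over all genes tested 6.61% had groups apart in the first way and 11.8% in the second, 18.4% together.

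The libraries held 14.8 to 61.9 M reads, as read from the steps between low RPKM values. Irf3 itself stood at 7.40, 8.74 and 7.68 RPKM in Irf3KO and 13.76, 13.87 and 11.56 RPKM in WT (log2 fold change -0.65 ± 0.18 SE, limma adjusted p = 0.344). Irf3KO replicate 2 resembled the rest least, with an average correlation of 0.907 to the other 5, where each of those had 0.941 to 0.966, and its long genes read low. Relative to the WT mean, the median gene there was at 0.09 on the log2 scale among genes of up to 2000 bases, at -0.22 from 2000 to 4000, at -0.45 from 4000 to 6000 and at -0.67 above 6000, while in the other 5 libraries these medians lay between -0.10 and 0.11. Values of genes and pathway lists that move by over 1.5 times or turn without this library are therefore also given without it. Markers of cardiomyocytes, fibroblasts, macrophages, endothelial cells and pericytes were held and above 0 in every library, as the labelled tissue would have.

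Among the 6 genes Pdgfrb had the highest level, a mean of 44.8 RPKM over the 6 libraries, above every value of the next gene, Pdgfb, at 26.3 RPKM. The order of Pdgfb and Pdgfra (24.6 RPKM) differed by group: Pdgfb was the higher in 3 of 3 Irf3KO libraries and in 0 of 3 WT libraries, an order seen after the fact whose difference between groups was not tested. Pdgfra was above Pdgfa (12.5 RPKM) in 5 of 6 libraries, all but Irf3KO replicate 2. Pdgfa lay above Pdgfd (6.15 RPKM) with no overlap, and Pdgfd lay above Pdgfc (4.46 RPKM) in 6 of 6 libraries although their ranges overlapped. The ligands with a CUB domain were thus the least abundant of the family, and Pdgfc ranked at the 29.5th percentile of all genes in the table while Pdgfrb ranked at the 89.8th.

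**Figure D1:**
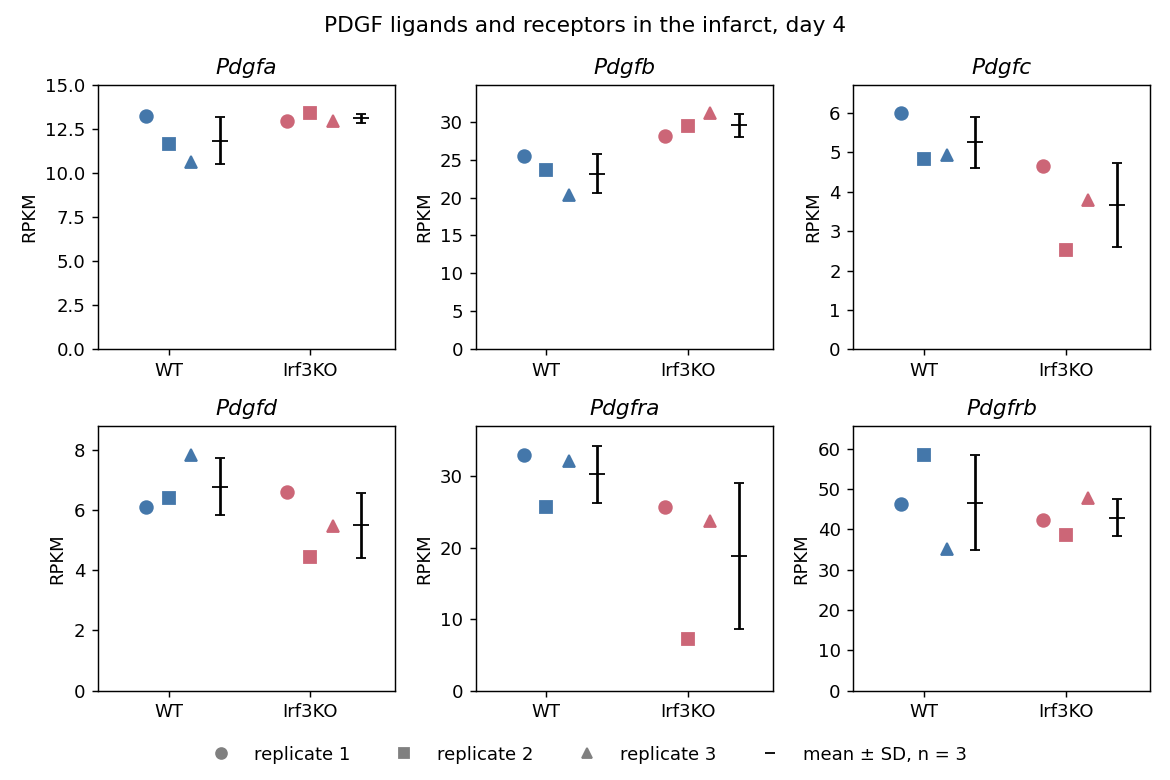
RPKM of each PDGF gene (vertical axis, from 0) in the WT and Irf3KO libraries; symbols give the replicate number, and the black mark is the mean ± SD (n = 3). The groups are apart for Pdgfb and Pdgfc, and Irf3KO replicate 2 is far below the rest for Pdgfra, at 7.17 RPKM.

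Pdgfb encodes the B chain, which endothelial cells, macrophages and platelets supply. It stood at 28.08, 29.39 and 31.09 RPKM in Irf3KO replicates 1 to 3 and at 25.43, 23.62 and 20.36 RPKM in WT replicates 1 to 3. Every Irf3KO library was above every WT library, and Irf3KO replicate 2 lay between the other Irf3KO libraries. The means were 29.5 ± 1.51 and 23.1 ± 2.57 RPKM (SD, n = 3 each), a ratio of 1.28, and the log2 fold change was 0.34 ± 0.18 (SE; limma adjusted p = 0.556). Its 95% interval ran from -0.07 to 0.75, so a change of up to 1.69-fold upward lay within it. Without Irf3KO replicate 2 the log2 fold change was 0.35 ± 0.15 (limma adjusted p = 0.675).

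Pdgfa encodes the A chain, which binds only the alpha receptor. It was the steadiest ligand in the knockout, at 12.98, 13.40 and 12.97 RPKM, against 13.26, 11.64 and 10.63 RPKM in WT. The groups overlapped, since WT replicate 1 was above Irf3KO replicates 1 and 3. The log2 fold change was 0.14 ± 0.18 (SE, n = 3 each; limma adjusted p = 0.702), with a 95% interval from -0.26 to 0.54.

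Pdgfc encodes a ligand of the alpha receptor that tissue plasminogen activator can release from its CUB domain. It stood at 4.64, 2.53 and 3.8 RPKM in Irf3KO and at 5.99, 4.83 and 4.94 RPKM in WT. All Irf3KO libraries were below all WT libraries, Irf3KO replicate 1 by a narrow margin. The means were 3.66 ± 1.06 and 5.25 ± 0.640 RPKM (SD, n = 3 each), and the log2 fold change was -0.45 ± 0.22 (SE; limma adjusted p = 0.556; 95% interval -0.96 to 0.06). Between 233 and 1197 reads lay behind each value, so counting alone gave an error of up to 6.55%, and the counting intervals (exact Poisson, 95%) of Irf3KO replicate 1, 4.17 to 5.15 RPKM, and WT replicate 2, 4.42 to 5.27 RPKM, overlapped. Without Irf3KO replicate 2, where genes of this length read low, the log2 fold change was -0.26 ± 0.15 (limma adjusted p = 0.770), and the ratio of WT to Irf3KO went from 1.44 to 1.25.

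Pdgfd encodes a ligand of the beta receptor that urokinase can activate. It stood at 6.61, 4.45 and 5.46 RPKM in Irf3KO and at 6.10, 6.40 and 7.85 RPKM in WT. The groups overlapped, with Irf3KO replicate 1 above 2 of the WT libraries. The log2 fold change was -0.27 ± 0.20 (SE, n = 3 each; limma adjusted p = 0.576), and -0.14 ± 0.16 without Irf3KO replicate 2.

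Added together the ligands came to 52.3, 49.8 and 53.3 RPKM in Irf3KO and 50.8, 46.5 and 43.8 RPKM in WT, groups that overlapped. Pdgfb made up 53.7%, 59.1% and 58.3% of that sum in Irf3KO and 50.1%, 50.8% and 46.5% in WT, so its share was higher in each Irf3KO library than in any WT library. The share of Pdgfc was 8.87%, 5.08% and 7.13% against 11.8%, 10.4% and 11.3%, lower in each Irf3KO library. The share of Pdgfa stayed between 24.3% and 26.9% in all 6. These shares were computed after the values had been seen and were not tested.

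Pdgfra encodes the alpha receptor, which binds the A, B and C chains. It stood at 25.77, 7.17 and 23.72 RPKM in Irf3KO and at 33.05, 25.64 and 32.08 RPKM in WT. Irf3KO replicate 2 lay far below the other 5 libraries, and Irf3KO replicate 1 was just above WT replicate 2, so the groups overlapped. The means were 18.9 ± 10.2 and 30.3 ± 4.03 RPKM (SD, n = 3 each), and the log2 fold change was -0.82 ± 0.43 (SE; limma adjusted p = 0.556), with a 95% interval from -1.80 to 0.15. Without Irf3KO replicate 2 it was -0.27 ± 0.16 (limma adjusted p = 0.774; 95% interval -0.66 to 0.12).

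The low value of Pdgfra in Irf3KO replicate 2 rested on 874 reads, and its counting interval (exact Poisson, 95%) was 6.70 to 7.66 RPKM. On the log2 scale it lay 1.93 below the WT mean in that library, where 1.23% of all genes tested were as low or lower. With a length of 6737 bases Pdgfra belongs to the class above 6000 bases, whose median there was -0.67, and the medians of the 14 fibroblast, 10 macrophage and 10 cardiomyocyte markers there were -0.84, -1.08 and 0.71. Over all marker lists these medians ran from -1.675 for mesothelial to 2.27 for red cell markers, with endothelial markers at -0.12 and pericyte markers at -0.09. Pdgfrb, with 5478 bases, was at -0.24 in the same library, above its own class median of -0.45. The part of gene length or of cell makeup in the value of Pdgfra was not tested.

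Pdgfrb encodes the beta receptor, which binds the B and D chains. It stood at 42.24, 38.58 and 47.75 RPKM in Irf3KO and at 46.29, 58.57 and 35.14 RPKM in WT. The WT libraries held both the highest and the lowest value, and all Irf3KO libraries lay between them. The log2 fold change was -0.10 ± 0.23 (SE, n = 3 each; limma adjusted p = 0.848; 95% interval -0.63 to 0.44), and its sign turned, to 0.028, when libraries were scaled by median-of-ratios factors and, to 0.080, without WT replicate 2. It was -0.02 without Irf3KO replicate 2.

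**Figure D2:**
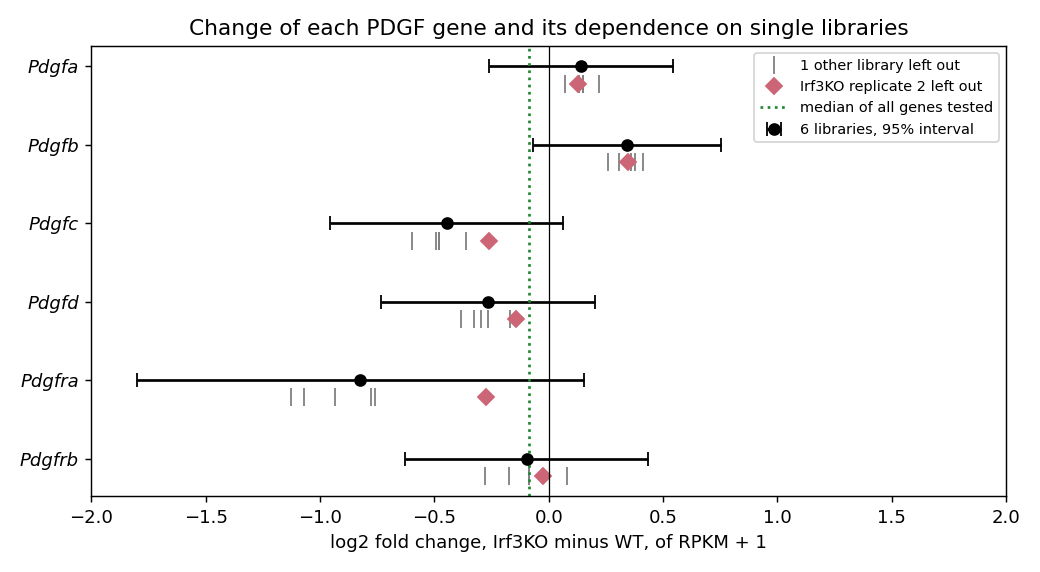
Log2 fold change (horizontal axis, Irf3KO minus WT, of RPKM + 1) of each PDGF gene; black points are the estimate from 6 libraries with its 95% interval from limma, and the marks under each give the estimate with 1 library left out. All 6 intervals include 0, and for Pdgfra the estimate moves from -0.82 to -0.27 without Irf3KO replicate 2.

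Upstream sequence was looked at for Pdgfc and Pdgfra because they were the members with the lowest log2 fold changes, and IRF3 acts through the interferon-stimulated response element, GAAANNGAAA. Of the 6 genes, 4 had an entry in the RefSeq promoter table (GRCm38.p6, whereas the authors' counts were made on mm9), with 5 start sites in all. The sequences are the 250 bases before the start site, 5′ to 3′ on the gene's strand, with each GAAA, the repeated unit of that element, or its reverse complement TTTC in capitals.
Pdgfc, chr3:81036166-81036415, plus strand: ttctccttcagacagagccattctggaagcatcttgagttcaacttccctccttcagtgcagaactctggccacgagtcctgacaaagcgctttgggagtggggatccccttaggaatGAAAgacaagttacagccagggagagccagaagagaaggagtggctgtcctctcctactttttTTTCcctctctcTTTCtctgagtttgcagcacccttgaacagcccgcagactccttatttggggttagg
Pdgfra, chr5:75152001-75152250, plus strand: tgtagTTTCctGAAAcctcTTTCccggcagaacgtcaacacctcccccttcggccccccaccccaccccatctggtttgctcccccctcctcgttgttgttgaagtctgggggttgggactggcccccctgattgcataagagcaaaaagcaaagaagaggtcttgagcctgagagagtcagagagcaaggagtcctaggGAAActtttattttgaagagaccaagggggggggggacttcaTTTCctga

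The unit GAAA occurred 3 times in the Pdgfc window and 5 times in the Pdgfra window, counting both strands, but GAAANNGAAA occurred in neither, nor in the windows of Pdgfa and Pdgfd. Over all 32851 promoter windows of this length 2.98% held GAAANNGAAA on either strand and 86.4% held GAAA. The Pdgfc window also held ccttatttgg, a match to the CArG box that serum response factor binds, which begins 17 bases before the start site and was found in 1.47% of all windows. The windows of Pdgfa, with 66.4% and 72.4% G or C, held the GC box GGGCGG (1 and 2 matches), as 32.7% of windows did. The window of Pdgfd held 1 TATAAA, as 12.4% did. These matches describe the sequence and are not measured sites.

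Pdgfra and Pdgfc were high and low in similar libraries. Over the 6 libraries their log2(RPKM + 1) values had a Pearson r of 0.94, and 0.85 without Irf3KO replicate 2, which has the lowest value of both. Pdgfa and Pdgfb had an r of 0.88 (0.86 without that library), and Pdgfb and Pdgfd one of -0.79 (-0.86). Pdgfrb had an r between -0.09 and 0.28 with the other members, but without Irf3KO replicate 2 it was -0.65 with Pdgfd, -0.51 with Pdgfra and 0.34 with Pdgfb. These are descriptions of 6 libraries that share depth, length and makeup effects, and 21.1% of all genes tested had an r above 0.9 with Pdgfra, 14.0% with Pdgfc, 0.798% with Pdgfb and 0.256% with Pdgfrb.

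The genes most like each member were taken as the 3 with the highest Pearson r over the 6 libraries. For Pdgfra they were Fst, the activin antagonist follistatin, Max, the dimer partner of Myc, and Tor1aip1 (r = 0.998, 0.996 and 0.995). For Pdgfc they were Fcgr4, an Fc receptor of myeloid cells, Gm1966 and 2410018M08Rik (each 0.998). Fcgr4 stood at 20.18, 7.31 and 14.88 RPKM in Irf3KO and 35.30, 23.94 and 24.21 RPKM in WT. For Pdgfd they were Zfp60, Zfp708 and Fam82a1 (0.993, 0.983 and 0.977). For Pdgfa they were 2700094K13Rik, Fmnl1 and Fam192a (0.995, 0.992 and 0.990), and for Pdgfb Gm6365, Gm15784 and Csrp2bp (0.991, 0.990 and 0.989). For Pdgfrb they were Zdhhc16, Gbf1 and Fam188b (0.975, 0.972 and 0.957).

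Members were next set against markers of the cells that carry them, because in bulk tissue fewer cells of a type and less RNA per cell cannot be told apart. Of the 14 fibroblast markers tested none was called, 12 had values below 0, and the list's median was -0.48 (-0.27 without Irf3KO replicate 2). Their summed level was 3812 to 5151 RPKM in Irf3KO and 6097 to 6470 RPKM in WT, groups that did not overlap, and no marker was at 0. Collagen genes weigh most in this sum. Taken singly, 6 of the 14 markers had all Irf3KO libraries below all WT libraries, as 11.8% of all genes tested did. The median marker, relative to the WT mean, was at -0.13 in WT replicate 1 and -0.17 in Irf3KO replicate 3. Of the other cell types, all 10 cardiomyocyte markers had values above 0 (median 0.56, none called), all 8 mesothelial markers below (-0.91, none called, 4 with an unadjusted limma p under 0.05, against 8.40% of all genes) and all 5 red cell markers above (1.25, none called). Without Irf3KO replicate 2, 1 mesothelial marker had such a p. Summed levels overlapped between groups for mesothelial (31.8 to 77.0 RPKM in Irf3KO, 57.4 to 197 RPKM in WT) and red cell markers (130 to 900 against 89.1 to 386 RPKM), and for cardiomyocyte markers. WT replicate 1 was low in cardiomyocyte markers, which summed to 6459 RPKM there and to 12440 to 20100 RPKM in the other 5 libraries, and the part of this makeup in the levels of the PDGF genes was not tested. Postn, periostin of activated fibroblasts, stood at 272 ± 90.0 against 660 ± 228 RPKM (SD, n = 3 each; limma adjusted p = 0.439), and Cthrc1 at 98.1 ± 11.4 against 181 ± 43.1 RPKM (limma adjusted p = 0.368). These were the fibroblast markers with the lowest log2 fold changes, -1.27 and -0.86, and do not stand for the list, where 2 of 14 were above 0.

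Pdgfra minus the mean of the fibroblast markers, in log2(RPKM + 1), was -2.64, -3.80 and -2.74 in Irf3KO and -2.42, -2.95 and -2.62 in WT. Apart from Irf3KO replicate 2 the libraries of both groups lay together. The difference between the groups was -0.40 (two-sided exact permutation test, p = 0.400, where 3 against 3 cannot go below 0.1), and -0.03 without that library. The value of Pdgfra minus Pdgfrb was -0.69, -2.28 and -0.98 against -0.47, -1.16 and -0.13, a difference of -0.73 (exact permutation p = 0.300) that became -0.25 without Irf3KO replicate 2.

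Pdgfrb minus the mean of 10 pericyte markers was 1.31, 1.35 and 1.35 in Irf3KO and 1.76, 1.5 and 0.87 in WT. The Irf3KO libraries were nearly alike and lay inside the range of the WT libraries. The difference was -0.04 (exact permutation p = 1), turning to 0.15 without WT replicate 1 and to 0.025 without WT replicate 2. None of the 10 pericyte markers was called, 5 were above 0 and 5 below, and their summed level was 191 to 271 RPKM in Irf3KO and 217 to 317 RPKM in WT. Pdgfrb was not set against smooth muscle markers. Of these 6 markers none was called and 5 had values below 0 (median -0.27). Without Irf3KO replicate 2 all 6 were below 0 (median -0.24). Rgs5, the most abundant of them, stood at 85.7 ± 40.9 against 122.6 ± 44.9 RPKM (SD, n = 3 each; log2 fold change -0.57; limma adjusted p = 0.578), and at -0.11 without Irf3KO replicate 2.

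Pdgfb minus the mean of 10 endothelial markers was -0.12, 0.46 and 0.06 in Irf3KO and -0.49, -0.14 and -0.22 in WT. Each Irf3KO library was above each WT library, Irf3KO replicate 1 by 0.02. The difference was 0.42 (exact permutation p = 0.1, the smallest that 3 against 3 allows), and 0.25 without Irf3KO replicate 2 (exact permutation p = 0.2). Pdgfb has 2918 bases, and the endothelial markers run from 1414 for Cldn5 to 5409 for Emcn. In Irf3KO replicate 2 the median gene was at -0.22 from 2000 to 4000 bases and at -0.45 from 4000 to 6000. The part of gene length in this difference was not tested. Adjusted over these 4 comparisons the exact permutation p-values were 0.400 for Pdgfb, 0.533 for both comparisons of Pdgfra and 1 for Pdgfrb. None of the endothelial markers was called, and their summed level was 294 to 399 RPKM in Irf3KO and 306 to 478 RPKM in WT. Macrophages and platelets are further sources of Pdgfb. The 10 macrophage markers summed to 2172 to 5667 RPKM against 3301 to 6051 RPKM, a sum in which Lyz2 weighed most (mean 2400 RPKM over the libraries). None of them was called and 9 had values below 0 (median -0.33, and 0.006 without Irf3KO replicate 2). Of 8 platelet markers 2 were held, Pf4 and Ppbp, which summed to 197 to 252 RPKM against 109 to 307 RPKM. That sum was nearly all Pf4 (mean 191 RPKM over the libraries, against 6.71 for Ppbp), so it says little of platelet content. The part of macrophages and platelets in the level of Pdgfb was not tested.

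**Figure D3:**
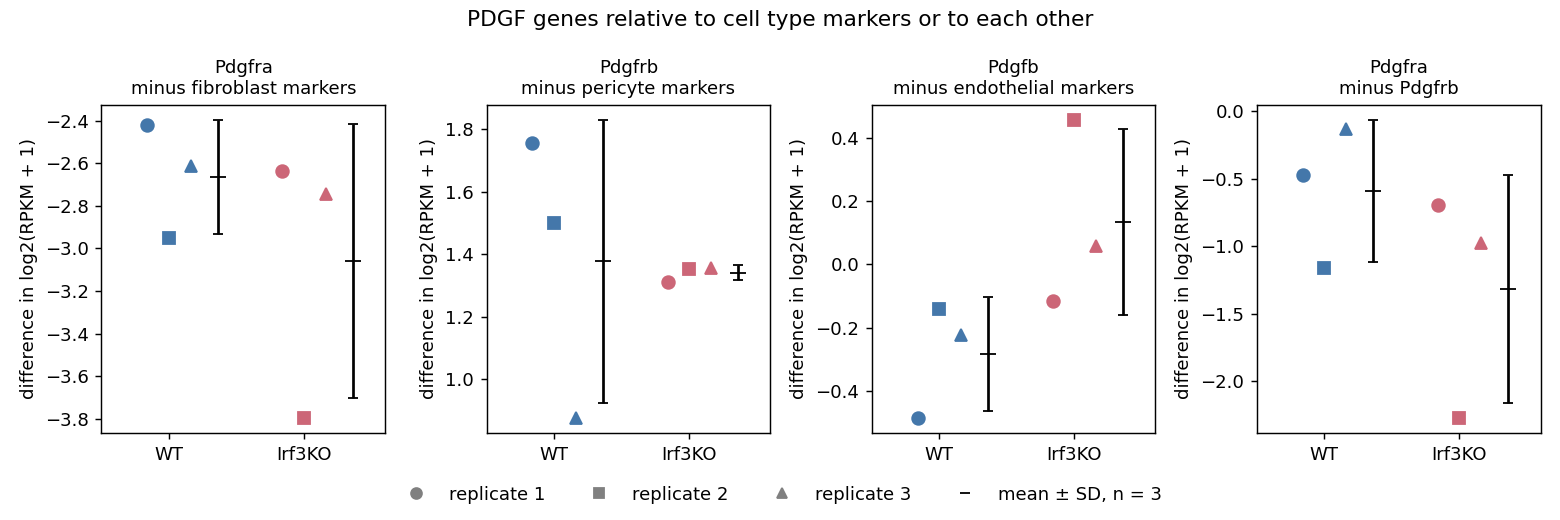
Difference in log2(RPKM + 1) between a PDGF gene and the mean of a marker list, or between the receptors (vertical axis, not starting at 0), in WT and Irf3KO libraries; symbols give the replicate number and the black mark the mean ± SD (n = 3). The groups are apart only for Pdgfb minus endothelial markers, and Irf3KO replicate 2 is the lowest library for Pdgfra in both of its panels.

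**Figure D4:**
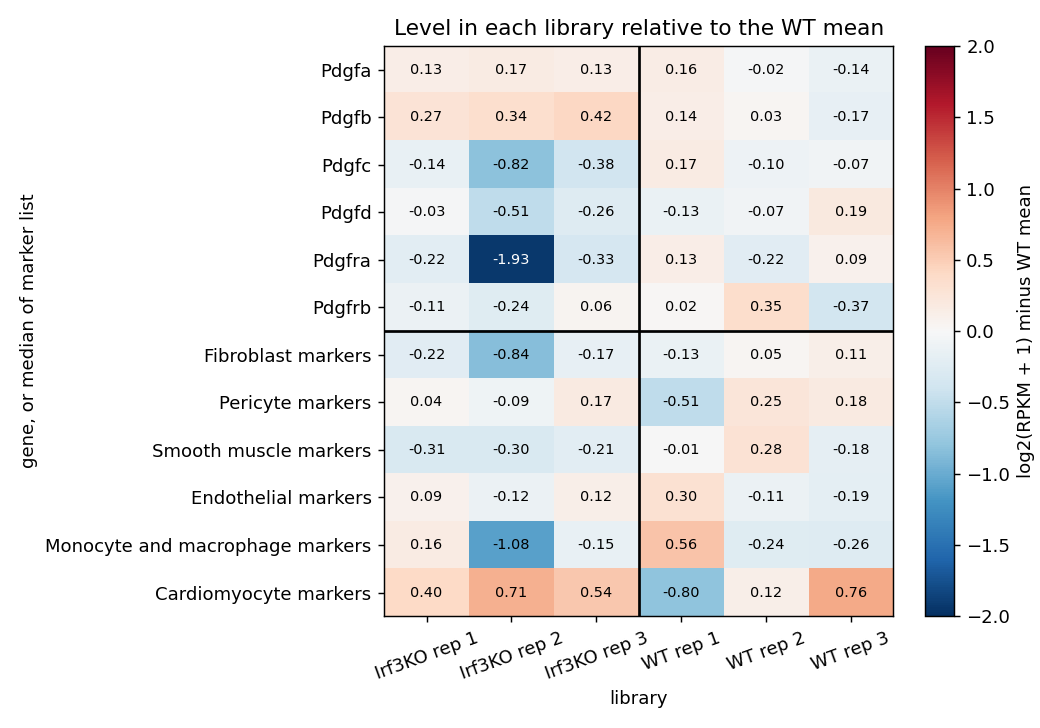
Each cell gives log2(RPKM + 1) minus the WT mean in 1 library (columns) for a PDGF gene or for the median gene of a marker list (rows); blue is lower and red higher. Of the rows plotted, Pdgfra (-1.93), macrophage markers (-1.08) and fibroblast markers (-0.84) are lowest in Irf3KO replicate 2, while Pdgfb is above 0 in all 3 Irf3KO libraries.

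Of the proteins that process ligands or bind them none was called. Of 9 genes in this list 8 were tested, 6 had values below 0, and the median was -0.36 (-0.12 without Irf3KO replicate 2). An unadjusted limma p under 0.05 was found for 2 of the 8, against 8.40% of all genes tested. All Irf3KO libraries were below all WT libraries for 3 of the 8, against 11.8% of all genes tested. Pdgfrl, a secreted protein resembling the ligand-binding part of the receptors, stood at 7.65, 4.99 and 8.39 RPKM in Irf3KO and 11.13, 16.84 and 14.51 RPKM in WT. Its groups did not overlap, and the log2 fold change was -0.93 ± 0.24 (SE; limma adjusted p = 0.306), and -0.73 ± 0.19 without Irf3KO replicate 2. Pcsk6, a proprotein convertase of the furin family, stood at 8.09, 6.95 and 9.60 RPKM against 10.15, 15.62 and 20.49 RPKM, also apart (log2 fold change -0.79 ± 0.27; limma adjusted p = 0.506).

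Furin, which cleaves the A and B chain precursors, was at 27.7 ± 7.64 against 25.6 ± 4.17 RPKM (SD, n = 3 each; limma adjusted p = 0.864), a log2 fold change of 0.09 that turned to -0.10 without Irf3KO replicate 2. Plat and Plau, the plasminogen activators that act on the C and D chains, were at -0.32 ± 0.37 and 0.13 ± 0.39 on the log2 scale (limma adjusted p = 0.677 and 0.878), and at 0.13 and 0.54 without that library. Sparc, a matrix protein that binds PDGF-B, was at 1253 ± 263 against 1625 ± 141 RPKM with groups that did not overlap (log2 fold change -0.39; limma adjusted p = 0.618), and at -0.21 without it. Nrp1, a co-receptor best known with VEGF that also binds PDGF, stood at 59.08, 20.61 and 53.12 RPKM against 67.95, 59.07 and 49.76 RPKM, low in Irf3KO replicate 2 as Pdgfra was, and its log2 fold change went from -0.53 ± 0.38 to -0.06 without that library (limma adjusted p = 0.566 and 0.949).

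Of the 26 proteins that relay the receptor signal none was called, 15 had values below 0 and 11 above, and the median was -0.04. Without Irf3KO replicate 2 the median was 0.018, with 12 below 0. Pik3r1, the regulatory subunit of phosphoinositide 3-kinase that docks on both receptors, was at 13.6 ± 3.68 against 22.4 ± 6.48 RPKM (SD, n = 3 each; log2 fold change -0.67 ± 0.29; limma adjusted p = 0.556), and -0.44 without Irf3KO replicate 2. Hras1, a Ras GTPase, was at 14.68, 32.15 and 16.95 RPKM against 14.10, 12.40 and 12.12 RPKM, with Irf3KO replicate 2 far above the rest, and its log2 fold change of 0.60 ± 0.29 was 0.28 without that library (limma adjusted p = 0.556 and 0.730). Mapk3, which encodes the kinase ERK1, was at 0.47 ± 0.25 on the log2 scale (limma adjusted p = 0.556). The adaptor Grb2 was at 0.25 ± 0.20 (limma adjusted p = 0.582).

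The 10 phosphatases, ubiquitin ligases and feedback inhibitors had a median of -0.22 with 7 values below 0 (0.01 without Irf3KO replicate 2, with 5 below 0), and none was called. Spry1, a feedback inhibitor of receptor tyrosine kinases, stood at 12.26, 10.63 and 13.81 RPKM against 14.64, 22.18 and 18.06 RPKM. Its groups did not overlap (log2 fold change -0.53 ± 0.21; limma adjusted p = 0.556), and it was at -0.44 without Irf3KO replicate 2. Spry4, of the same family, was on the other side of 0, at 0.27 ± 0.20 (limma adjusted p = 0.569). Ptprj, a phosphatase that acts on the beta receptor, was at -0.60 ± 0.41 with all libraries and at -0.10 without Irf3KO replicate 2 (limma adjusted p = 0.561 and 0.925).

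Genes that PDGF is known to induce in cultured fibroblasts showed no common direction. Of 8 tested 4 were above 0 and 4 below, none was called and the median was 0.02. Fos had a log2 fold change of 0.29 ± 0.23, Myc 0.05 ± 0.21 and Egr1 -0.21 ± 0.27 (limma adjusted p = 0.578, 0.906 and 0.714). Cxcl1 and Ccl2, chemokines first found as PDGF-induced genes, were at -0.53 ± 0.27 and -0.22 ± 0.28 (limma adjusted p = 0.556 and 0.714). Without Irf3KO replicate 2 Fos was at 0.45, Myc at 0.22, Egr1 at -0.33, Cxcl1 at -0.25 and Ccl2 at 0.025.

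Relatives of the family, the VEGF ligands and receptors and the CSF1 and KIT systems, had a median of -0.11 over 13 tested genes, 8 of them below 0, and none was called. Without Irf3KO replicate 2 the median was 0.15, with 2 below 0. Pgf, placental growth factor, stood at 11.07, 8.25 and 12.44 RPKM against 9.84, 7.51 and 6.43 RPKM (log2 fold change 0.38 ± 0.23; limma adjusted p = 0.556). Vegfb stood at 54.96, 174.02 and 74.94 RPKM against 41.39, 50.53 and 79.24 RPKM, highest in Irf3KO replicate 2, and was at 0.70 ± 0.43 with all libraries and 0.22 without it (limma adjusted p = 0.556 and 0.896). Il34, a ligand of the CSF1 receptor, was at 0.29 ± 0.22 (limma adjusted p = 0.572), and Csf1r, the related receptor of macrophages, at -0.24 ± 0.35 (limma adjusted p = 0.745), turning to 0.14 without Irf3KO replicate 2.

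**Figure D5:**
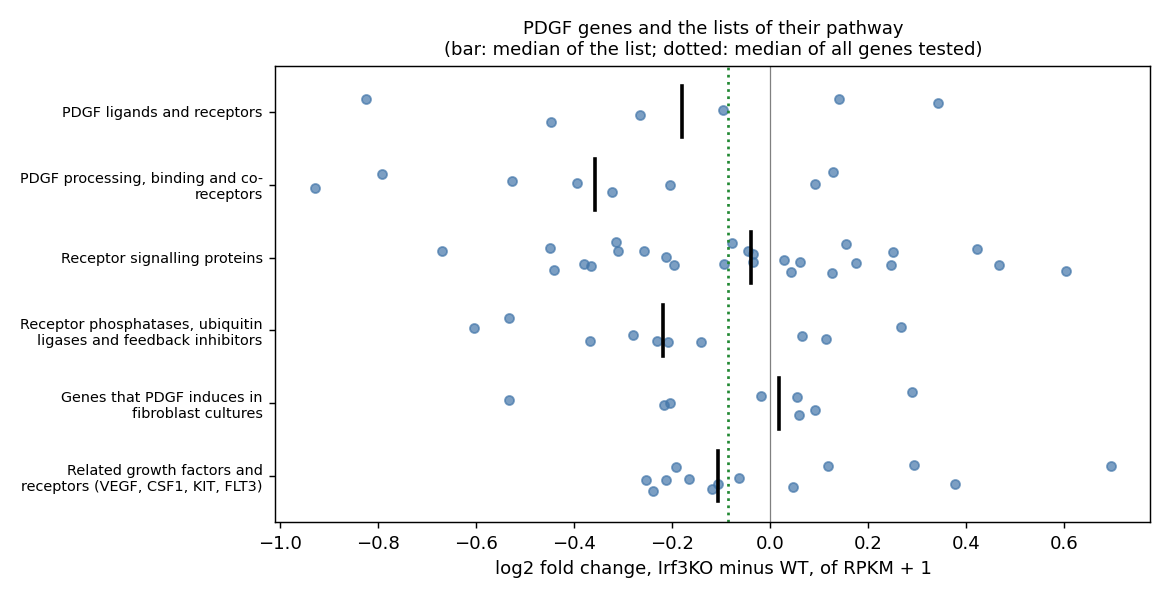
Log2 fold change (horizontal axis, Irf3KO minus WT, of RPKM + 1) of each tested gene (points) in the PDGF family and in 5 lists of its pathway (rows, spread vertically for visibility); the bar is the list's median and the dotted line the median of all genes tested, -0.09. The list of processing and binding proteins has the lowest median, -0.36, and that of PDGF-induced genes the highest, 0.02.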

How the data were processed

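Total RNA of 6 infarct samples was sequenced. The authors deposited RPKM rounded to 2 decimals with a length per gene, and, per the submitters' processing notes, used STAR 2.3.0, SAMtools 0.1.18.0, Picard 1.100, HTSeq 0.6.0 and edgeR 3.8.6 on NCBIM37 (mm9). The sources used here do not state strand, multi-mapping or the gene filter.

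Columns were matched to samples by name, and 5 lines with shifted cells were repaired. Reads behind a value were estimated from RPKM, length and library depth, the depth from the steps between low values (in 3 simulated libraries off by at most 0.011%). Intervals on them cover counting error only.

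The 12913 genes whose mean reached 1 RPKM were tested on log2(RPKM + 1), which understates changes of low genes. The fit used limma 3.58.1 (R 4.3.3; lmFit, then eBayes with trend), two-sided, with Benjamini-Hochberg adjustment and a threshold of 0.05. In a simulation of Irf3KO against WT over 12913 genes, of 100 genes altered 2-fold the fit found 19, of 100 altered 4-fold it found 81, and 2 calls were false. The altered genes had mean levels above that of Pdgfc, the largest spreads were capped, and noise was drawn for each gene on its own. No shift shared between genes, such as that by length in Irf3KO replicate 2, was simulated, so these counts may not carry over to the data. Single values used exact permutation (Python 3.11.15). Alternatives were the pseudocount, filter, scaling, trend, replicate block and leaving out each library. Nothing says whether the samples of a group come from separate mice. The p-values therefore reflect only spread among these samples, which may be technical.

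The members and lists were chosen with earlier results of these data known. Named genes were the members, the 3 genes of smallest p in each pathway list and the 3 genes most correlated with each member; further list genes (Furin, Plat, Plau, Sparc, Grb2, Myc, Egr1, Csf1r, Postn, Cthrc1, Rgs5) were named to show a role, after their values were seen. Pcsk5, Fosl1, Flt3, Flt3l and most platelet and lymphocyte markers are not analysed here. Length classes were added after seeing the data. None of the 11 marker lists held a called gene.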

Additional observations from a re-analysis of the deposited data

How the results depend on the processing

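No PDGF gene was called under any of the 11 alternatives, the smallest adjusted p among them being 0.210 (limma, Pdgfra with the replicate block). The log2 fold changes kept their direction except for Pdgfrb, at 0.028 with median-of-ratios scaling and -0.28 to 0.080 with 1 library left out (0.080 without WT replicate 2). Of 26 other pathway and marker genes named with log2 fold changes, 7 turned, each only with 1 library left out: Ccl2 (-0.39 to 0.025; 0.025 without Irf3KO replicate 2), Plat (-0.64 to 0.13) and Csf1r (-0.44 to 0.14) without Irf3KO replicate 2, Furin (-0.10 to 0.28) without it or, at -0.021, without WT replicate 3, Egr1 (-0.37 to 0.039) without WT replicate 3, Myc (-0.10 to 0.22) without Irf3KO replicate 3, and Plau (-0.13 to 0.54), at -0.10 without Irf3KO replicate 1, -0.050 without Irf3KO replicate 3 and -0.13 without WT replicate 3. Median-of-ratios scaling moved the median of all genes from -0.09 to 0.02. The estimate for Pdgfra ran from -1.13 without Irf3KO replicate 1 to -0.27 without Irf3KO replicate 2. Pdgfrb minus pericyte markers ran from -0.29 to 0.15 over the fits that left out 1 library, turning to 0.15 without WT replicate 1 and to 0.025 without WT replicate 2; the cause was not tested. Over all genes 65 were called, and 21 to 96 with 1 library left out (21 without WT replicate 3, 26 without Irf3KO replicate 3, 30 without WT replicate 2, 31 without WT replicate 1). With the replicate number as a block 250 were called, but the labels do not say that the numbers pair the samples. The deviations of same-numbered libraries correlated at 0.13, -0.10 and -0.10, and not every library correlated best with its own number. With 3 libraries per group these correlations cannot decide whether the numbers pair samples. The block changed no call of a PDGF gene; for the values relative to markers its smallest possible exact permutation p is 0.250, so those fits say nothing on stability. Counts were thinnest for Pdgfc and Pdgfd, with 233 and 251 reads in Irf3KO replicate 2. Both had their lowest RPKM there, although that library was not the shallowest (18.1 M reads, against 14.8 M in Irf3KO replicate 1).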
